A study of Mus musculus with 6 samples.

Results

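The 10 genes described here encode the enzymes that make and remove superoxide and hydrogen peroxide. They were taken by symbol as 3 superoxide dismutases (Sod1, Sod2, Sod3), 4 peroxide-removing enzymes (Cat, Gpx1, Gpx3, Gpx4) and 3 NADPH oxidase subunits (Nox4, Cybb, Cyba), of 55487 genes in the deposited matrix, and all 10 were present. NADPH oxidases move electrons from NADPH onto oxygen, the dismutases turn the resulting superoxide into hydrogen peroxide, and catalase and the glutathione peroxidases reduce peroxides to water or alcohols. In the kidney, Nox4 is known as an oxidase of tubule cells and of endothelium, Gpx3 as a plasma peroxidase secreted mainly by the proximal tubule, and Cybb as the oxidase of phagocytes.

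RNA was measured in CD31-sorted cells of collagenase-digested whole kidneys, from 6 mice. The I-PpoI group was 3 mice that carried VE-cadherin Cre and a STOP-I-PpoI allele, so that I-PpoI, a homing endonuclease that cuts DNA, is made where the VE-cadherin promoter has been active. Their genotype labels name ROSA26, ROSA27 and ROSA28 in mice 1, 2 and 3. The control group was 3 wild-type littermates, and all 6 mice received a high-fat diet (60% kcal fat) for 4 weeks from 8 weeks of age and carried the same batch label. Values are FPKM, fragment counts divided by gene model length and library size, so levels can be compared between genes.

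I-PpoI libraries 1 and 2 stood apart from the other 4. Whole fragments, worked back from FPKM and exon length, numbered 1590957 and 834149 in them, 13324308 in I-PpoI library 3 and 14081222 to 16954482 in the controls. Antisense gene models held 14.7% and 10.02% of the fragments of I-PpoI libraries 1 and 2, 0.119% in I-PpoI library 3 and 0.197 to 0.225% in the controls. Genes on the minus strand of the mitochondrial genome held 68.2% and 70.6% of the mitochondrial fragments of I-PpoI libraries 1 and 2, 0.0821% in I-PpoI library 3 and 0.0473 to 0.0664% in the controls. The strand setting used to count each library is not given in the sources used here, and whether these 2 libraries were counted with another setting was not tested, so each of their values carries that limit. Mitochondrial genes held 6.42%, 38.2% and 48.2% of the fragments of I-PpoI mice 1, 2 and 3, and 8.83 to 18.3% in the controls. Ddx3y, which is Y-linked, was counted at 20, 0 and 0 fragments in I-PpoI mice 1, 2 and 3 and at 959 to 1672 in the controls, and Xist, the transcript of the inactive X chromosome, had 0, 70 and 4739 in I-PpoI mice 1, 2 and 3 and 0 to 4 in the controls. Xist without Ddx3y was thus found in I-PpoI mice 2 and 3, while I-PpoI mouse 1 had Ddx3y fragments and none of Xist, as did 2 of the 3 controls, and the part of sex in the results was not tested. All 12 endothelial markers, such as Eng and Cldn5, were measured in all groups, with summed levels of 663 to 1970 FPKM in I-PpoI and 2564 to 2978 FPKM in control libraries. Eng overlaps an exon of a gene on the opposite strand. That gene was at 110.7 and 46.8 FPKM in I-PpoI libraries 1 and 2 and 4.42 to 6.82 FPKM in the other 4. The endothelial sums of those 2 libraries are therefore uncertain. The 12 proximal tubule markers summed to 357 to 1802 FPKM in I-PpoI and 826 to 1578 FPKM in control libraries. Some of these markers also overlap exons on the opposite strand. Aqp1, a water channel of tubule and endothelium, held 151 to 288 FPKM of these sums in I-PpoI and 407 to 604 FPKM in control libraries. Lrp2, another of the tubule markers, was found in every library too, so the preparations also held RNA of other kidney cells. In such bulk samples, fewer cells of a type and less RNA per cell cannot be told apart.

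Gpx1, Gpx3 and Gpx4 had the highest group means of the 10 transcripts and encode selenoproteins, in which a UGA codon inside the reading frame is read as selenocysteine. This codon sits at the catalytic site and distinguishes the 3 genes from the family members that use cysteine. The surrounding 45 coding bases are given from GENCODE M21 (GRCm38, plus strand), with the selenocysteine codon in capitals. It is codon 47 of Gpx1 (chr9:108339451-108339453), codon 73 of Gpx3 (chr11:54907256-54907258) and codon 73 of Gpx4 (chr10:80054737-80054739).
Gpx1: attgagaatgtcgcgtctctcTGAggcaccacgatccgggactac
Gpx3: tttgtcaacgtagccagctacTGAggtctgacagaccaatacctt
Gpx4: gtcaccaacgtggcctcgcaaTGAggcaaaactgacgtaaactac

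None of the 10 genes was called different between I-PpoI and control mice. Limma on log2(FPKM + 1), fitted to the 14962 genes that averaged 1 FPKM or more, called 0 of the 10 genes and 0 of all genes at an adjusted p under 0.05 (0% called), with 5457 genes at an unadjusted p under 0.05, 633 of them higher. All 10 genes passed the filter. The median log2 fold change over all tested genes was -0.65, and single values are given beside that shift. When each library was scaled by the median of its ratios to a common profile, the median became 0.02, and limma again called 0 of the 10 genes and 0 of all genes, with 1242 at an unadjusted p under 0.05. As deposited, 2 of the 10 fold changes were above 0, as were 28.4% of all tested genes. The 10 are all protein-coding, and among tested protein-coding genes alone 15.4% were above 0 as deposited, at a median of -0.78. After median-of-ratios scaling all 10 were above 0, with values between 0.04 (Sod1) and 0.92 (Sod3), as were 50.8% of all tested genes. This count depended on the kind of scaling: with quantile normalization, which gives every library the same distribution of values, Sod3 (0.41) and Nox4 (0.40) alone were above 0, Gpx3 was at -1.72 and Gpx4 at -0.94, 32.6% of all genes were above 0 at a median of -0.45, and limma called 0 genes, with 2587 at an unadjusted p under 0.05. Scaled values given from here on are those of median-of-ratios scaling. On fragment counts recovered from the FPKM values, limma-voom called 0 genes, with 532 at an unadjusted p under 0.05.

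Gpx3 was the most abundant of the 10 transcripts in every library, and the oxidase subunits Nox4 and Cybb were the least abundant by their means. In I-PpoI libraries the mean levels ran from Gpx3 (1363 ± 1203 FPKM) over Gpx1 (138 ± 48.0), Gpx4 (62.8 ± 12.3), Cyba (49.2 ± 7.94), Cat (30.5 ± 19.2), Sod1 (28.1 ± 7.26), Sod3 (19.3 ± 12.8) and Sod2 (6.17 ± 1.74) to Nox4 (4.09 ± 5.08) and Cybb (3.44 ± 3.90; SD, n = 3 each). In controls they ran from Gpx3 (1043 ± 364 FPKM) over Gpx1 (167 ± 78.1), Gpx4 (116 ± 59.7), Cyba (77.0 ± 34.2), Sod1 (50.8 ± 21.7), Cat (35.1 ± 3.52), Sod3 (14.2 ± 0.718) and Sod2 (8.98 ± 1.33) to Cybb (4.57 ± 4.34) and Nox4 (2.31 ± 0.503; SD, n = 3 each). Among controls, the ranges of neighbours overlapped from Gpx1 down to Sod1 and from Sod2 down to Nox4, while Gpx3, Sod1, Cat and Sod3 each stood clear of the gene below. Among I-PpoI libraries only the steps from Gpx3 to Gpx1 and from Gpx1 to Gpx4 were free of overlap. Gpx3 alone made up 51.6%, 75.6% and 87.3% of the summed FPKM of the 10 genes in I-PpoI mice 1, 2 and 3, and 77.4%, 64.3% and 63.0% in control mice 1, 2 and 3. Its control mean was above that of 99.9% of the tested genes, and that of Nox4 above 29.4%.

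**Figure D1:**
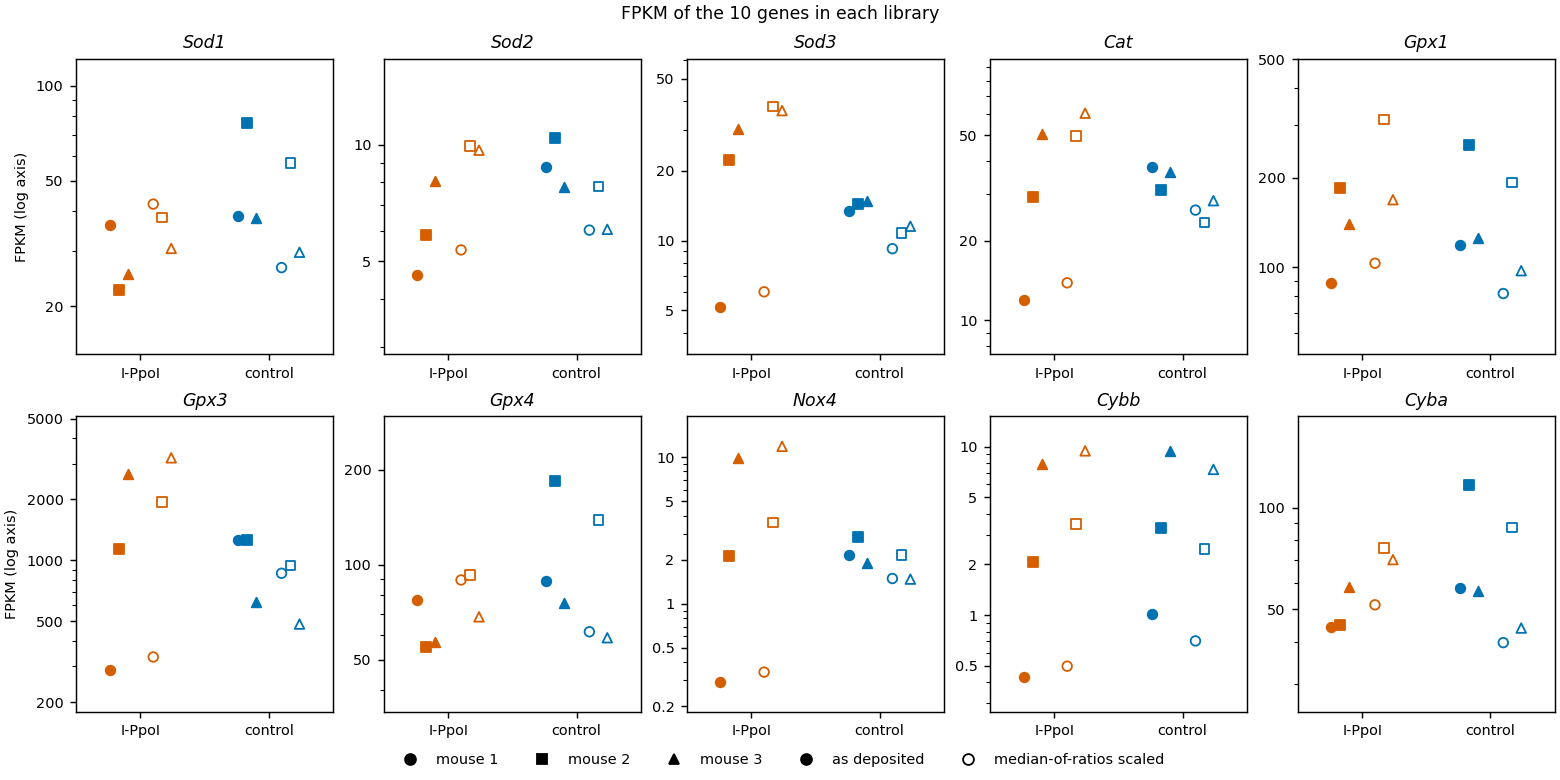
FPKM of each of the 10 genes (log axis) in the 3 I-PpoI and 3 control libraries, with a symbol for each mouse; filled symbols are values as deposited and open symbols are values after median-of-ratios scaling. The I-PpoI libraries spread widely for Sod3, Cat, Gpx3, Nox4 and Cybb, with mouse 1 lowest, and Sod1, Gpx1, Gpx4 and Cyba were highest of the controls in mouse 2.

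Sod1 is the cytosolic copper-zinc dismutase (ENSMUSG00000022982, chr16:90220754-90226329, plus strand). Its level was 36.3, 22.5 and 25.3 FPKM in I-PpoI mice 1, 2 and 3, against 38.5, 75.9 and 38.1 FPKM in control mice 1, 2 and 3. The groups did not overlap, with the highest I-PpoI value just under the lowest control value. Sod1 was the only 1 of the 10 genes without overlap, and 47.3% of all tested genes were also free of overlap (45.1% with I-PpoI lower). The log2 fold change was -0.79 (SE 0.40, 95% interval -1.76 to 0.19, limma adjusted p = 0.164), and the exact two-sided permutation test gave p = 0.10, the smallest that 3 against 3 allows. After scaling the levels were 42.1, 38.3 and 30.5 in I-PpoI and 26.5, 57.0 and 29.6 in control mice. The I-PpoI values then lay inside the control range, at a log2 fold change of 0.04 (SE 0.37, limma adjusted p = 0.951).

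Sod2, the manganese dismutase of the mitochondrial matrix (ENSMUSG00000006818, chr17:13006846-13040063, plus strand), was at 4.61, 5.84 and 8.05 FPKM in I-PpoI mice, against 8.75, 10.4 and 7.78 FPKM in control mice. Only I-PpoI mouse 3 reached the control range. Its log2 fold change was -0.50 (SE 0.33, limma adjusted p = 0.247) and, after scaling, 0.25 (SE 0.32, limma adjusted p = 0.641). Sod2 has no neighbour on the other strand within 5 kb of its exons, and among the 3654 tested genes of that kind its scaled log2 fold change was 0.52 (SE 0.31, limma adjusted p = 0.490).

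Sod3 is the extracellular copper-zinc dismutase, held at cell surfaces and matrix (ENSMUSG00000072941, chr5:52363791-52371418, plus strand). It was at 5.17, 22.4 and 30.2 FPKM in I-PpoI mice, against 13.4, 14.3 and 14.8 FPKM in control mice. The control values were the closest together of all 10 genes, with a highest value 1.11 times the lowest, while the I-PpoI values differed 5.85-fold, 1 below and 2 above every control. Between the groups the log2 fold change was 0.12 (SE 0.63, limma adjusted p = 0.878). After scaling the levels were 6.005, 37.9 and 36.4 in I-PpoI and 9.22, 10.8 and 11.5 in control mice, with a log2 fold change of 0.92 (SE 0.71, limma adjusted p = 0.474). Without I-PpoI mouse 1 it was 1.74 after scaling (SE 0.19, limma adjusted p = 0.359), and with I-PpoI mouse 3 as the sole I-PpoI library it was also 1.74 (SE 0.16, limma adjusted p = 0.267).

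Catalase, the peroxisomal enzyme that splits hydrogen peroxide, is encoded by Cat (ENSMUSG00000027187, chr2:103453849-103485160, minus strand). Its level was 11.9, 29.2 and 50.3 FPKM in I-PpoI mice, against 37.8, 31.1 and 36.3 FPKM in control mice. I-PpoI mouse 3 lay above all controls, mouse 2 just below them and mouse 1 far below them. As deposited the log2 fold change was -0.41 (SE 0.54, limma adjusted p = 0.540) and, after scaling, 0.42 (SE 0.58, limma adjusted p = 0.672). With I-PpoI mouse 3 as the sole I-PpoI library the scaled value was 1.23 (SE 0.15, limma adjusted p = 0.311).

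Gpx1 is the cytosolic and mitochondrial glutathione peroxidase (ENSMUSG00000063856, chr9:108338903-108340343, plus strand). It was at 88.7, 185 and 140.2 FPKM in I-PpoI mice, against 118, 257 and 125 FPKM in control mice. The groups overlapped and mouse 2 was the highest in each. The log2 fold change was -0.24 (SE 0.46, limma adjusted p = 0.674) and, after scaling, 0.61 (SE 0.54, limma adjusted p = 0.515). The gene model Gm37401 lies 630 bases away on the opposite strand and was at 5946, 3646 and 3.68 FPKM in I-PpoI mice, against 5.89 to 8.40 FPKM in control mice. No exon of that model overlaps Gpx1, and the source of its fragments in I-PpoI libraries 1 and 2 was not tested.

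Gpx3, the secreted peroxidase of plasma (ENSMUSG00000018339, chr11:54902453-54910377, plus strand), was at 287, 1141 and 2662 FPKM in I-PpoI mice, against 1254, 1254 and 623 FPKM in control mice. The I-PpoI libraries spanned a 9.27-fold range that held all 3 controls. Its log2 fold change was -0.05 (SE 0.83, limma adjusted p = 0.958). After scaling the levels were 333, 1936 and 3201 in I-PpoI and 863, 941 and 485 in control mice, with a log2 fold change of 0.80 (SE 0.88, limma adjusted p = 0.596). With I-PpoI mouse 3 as the sole I-PpoI library it was 2.15 (SE 0.50, limma adjusted p = 0.479).

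Gpx4 is the phospholipid hydroperoxide peroxidase that protects membranes from ferroptosis, a death by lipid peroxidation (ENSMUSG00000075706, chr10:80047166-80056439, plus strand). Its level was 77.0, 54.7 and 56.8 FPKM in I-PpoI mice, against 89.0, 185 and 75.4 FPKM in control mice. I-PpoI mouse 1 lay just above the lowest control and the other 2 below all controls. Between the groups the log2 fold change was -0.78 (SE 0.43, limma adjusted p = 0.184), near the median of all genes, and 0.06 after scaling (SE 0.41, limma adjusted p = 0.937).

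The catalytic oxidase subunits Nox4 and Cybb were the lowest of the 10 genes by their means, and their shared membrane partner Cyba was far above both. The upstream sequences of Nox4 and Cybb are shown. These 2 subunits have the same partner, and the sequences differ in base composition and in the boxes they hold. Whether the sequences bear on the levels was not tested. The 250 bases before the RefSeq start (GRCm38.p6) are chr7:87246399-87246648, plus strand, for Nox4 and chrX:9469325-9469574, minus strand, for Cybb. Both lie inside the longer GENCODE M21 gene spans and hold no exon of that annotation. Capitals mark a GC box (GGGCGG) in Nox4 and a CCAAT box in Cybb.
Nox4: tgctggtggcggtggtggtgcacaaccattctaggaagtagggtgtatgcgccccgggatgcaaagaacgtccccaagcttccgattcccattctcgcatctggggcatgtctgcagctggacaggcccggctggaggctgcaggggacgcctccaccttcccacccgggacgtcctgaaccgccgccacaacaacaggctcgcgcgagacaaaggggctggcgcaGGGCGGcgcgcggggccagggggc
Cybb: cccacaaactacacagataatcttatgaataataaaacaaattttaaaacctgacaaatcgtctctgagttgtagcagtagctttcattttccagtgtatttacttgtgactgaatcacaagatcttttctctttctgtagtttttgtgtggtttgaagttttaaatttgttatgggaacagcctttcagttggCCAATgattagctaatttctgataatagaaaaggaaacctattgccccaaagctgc
G and C made up 67.2% of the Nox4 window and 34.0% of the Cybb window. The GC box of Nox4 began 24 bases before the start, and the CCAAT box of Cybb 56 bases before it.

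Both boxes are common. Of 32851 RefSeq promoters, 32.7% held GGGCGG and 33.8% held CCAAT in the same 250 bases on either strand. Of the 9 genes among the 10 with a promoter in the table, some with several starts, 7 held a GC box and 6 a CCAAT box. The core of the antioxidant response element, TGACNNNGC, was in 10.2% of all promoters and in that of Sod1 alone among the 9. A TATA box (TATAAA) was in 12.4% of all promoters and 1 of the 9. These are matches of letters, counted on both strands, and those found in the 2 windows shown do not overlap each other.

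Nox4, which releases hydrogen peroxide without the cytosolic activators (ENSMUSG00000030562, chr7:87246096-87398710, plus strand), was at 0.294, 2.11 and 9.87 FPKM in I-PpoI mice, against 2.16, 2.87 and 1.89 FPKM in control mice. I-PpoI mouse 3 was 4.27 times the control mean, mouse 2 was inside the control range, and mouse 1 was below it. These levels rest on 4, 15 and 1114 recovered fragments in I-PpoI mice, against 296, 342 and 272 in control mice, so the 95% exact Poisson interval in I-PpoI mouse 1 ran from 0.0802 to 0.754 FPKM, for counting error only. As deposited the log2 fold change was 0.10 (SE 0.76, limma adjusted p = 0.915) and, after scaling, 0.68 (SE 0.81, limma adjusted p = 0.626). With I-PpoI mouse 3 as the sole I-PpoI library the scaled value was 2.36 (SE 0.21, limma adjusted p = 0.267), and without I-PpoI mouse 3 it was -0.13 (SE 0.54, limma adjusted p = 0.866).

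Cybb encodes gp91phox, the catalytic subunit of the phagocyte oxidase (ENSMUSG00000015340, chrX:9435252-9487771, minus strand). It was at 0.429, 2.05 and 7.84 FPKM in I-PpoI mice, against 1.02, 3.28 and 9.41 FPKM in control mice. Both groups spread widely, 18.3-fold among I-PpoI and 9.20-fold among control mice, and the controls of this gene varied more than those of any other of the 10. The log2 fold change was -0.41 (SE 0.85, limma adjusted p = 0.699) and, after scaling, 0.17 (SE 0.89, limma adjusted p = 0.916). Cybb also lacks a neighbour on the opposite strand, and among such genes its scaled value was 0.35 (SE 0.71, limma adjusted p = 0.829).

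Cyba, which encodes p22phox, the membrane partner that Nox4 and Cybb need (ENSMUSG00000006519, chr8:122424776-122432930, minus strand), was at 44.4, 44.8 and 58.4 FPKM in I-PpoI mice, against 57.9, 116 and 56.6 FPKM in control mice. Only I-PpoI mouse 3 fell within the control range. Its log2 fold change was -0.56 (SE 0.39, limma adjusted p = 0.273) and, after scaling, 0.28 (SE 0.39, limma adjusted p = 0.681). Cyba stood far above its partners in every library: the ratio of Nox4 to Cyba was 0.00663, 0.0472 and 0.169 in I-PpoI mice and 0.0374, 0.0246 and 0.0335 in control mice, and that of Cybb to Cyba 0.00967, 0.0459 and 0.134 in I-PpoI mice and 0.0177, 0.0282 and 0.166 in control mice.

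**Figure D2:**
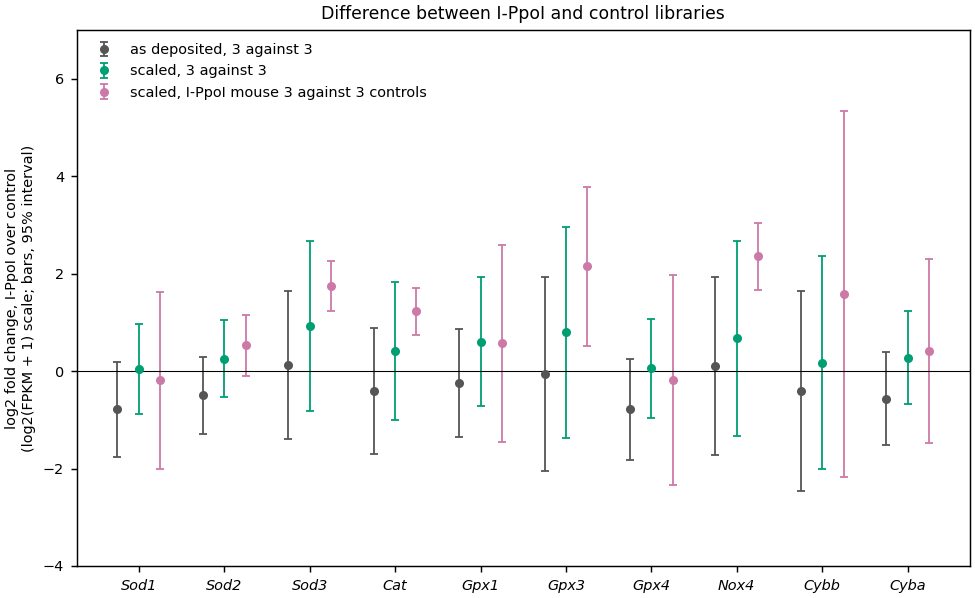
Log2 fold change of each gene, I-PpoI over control, on the log2(FPKM + 1) scale, with 95% intervals as bars; grey, as deposited; green, median-of-ratios scaled; pink, scaled with I-PpoI mouse 3 as the sole I-PpoI library. All green and grey intervals cross 0, and the pink values of Sod3, Cat, Gpx3 and Nox4 lie at 1.74, 1.23, 2.15 and 2.36. I-PpoI mouse 3 differed from all controls in Xist and Ddx3y, so the pink values cannot separate genotype from apparent sex.

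I-PpoI mouse 3 was the deepest I-PpoI library and did not share the antisense excess of the other 2. It differed from all controls in Xist (4739 fragments against 0 to 4) and Ddx3y (0 against 959 to 1672). Its mitochondrial share was 48.2%, against 8.83 to 18.3% in the controls. With it as the sole I-PpoI library, genotype and apparent sex cannot be told apart. Sod3, Gpx3 and Nox4 were at least 1.5 times every control in I-PpoI mouse 3 as deposited, as were 6.71% of all tested genes. After scaling Cat joined them (10.7% of all tested genes). With this library as the sole I-PpoI library, whose spread is taken from the controls, limma on scaled values called 1 gene of 14962 (0.00668% called), the glucuronosyltransferase Ugt1a2 (log2 fold change 7.10, adjusted p = 0.0476), and none of the 10. As deposited it called 0, with 4430 genes at an unadjusted p under 0.05. Conversely, leaving out I-PpoI mouse 3 called 56.4% of all tested genes as deposited and 37.8% after scaling, and weighting the libraries by their agreement called 45.1% (18.6% higher and 26.5% lower), with none of the 10 genes called in any of these fits.

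Sod3, Cat, Gpx3 and Nox4 varied between the libraries side by side with the median of the proximal tubule markers, though not with every marker. Relative to the control mean on the scaled log2 scale, the median of the 12 tubule markers was at -0.73, 2.32 and 2.19 in I-PpoI mice 1, 2 and 3, and at -0.08, 0.31 and -0.35 in control mice 1, 2 and 3. On the same scale Gpx3 was at -1.13, 1.40 and 2.13 in I-PpoI mice and at 0.24, 0.36 and -0.60 in control mice. Nox4 was at -1.002, 0.77 and 2.26 in I-PpoI mice and at -0.11, 0.23 and -0.12 in control mice. These 2 genes lay below the controls in I-PpoI mouse 1 and above them in mice 2 and 3. Sod3 was at -0.71, 1.76 and 1.70 in I-PpoI mice and at -0.17, 0.04 and 0.13 in control mice. Cat was at -0.85, 0.92 and 1.19 in I-PpoI mice and at 0.01, -0.14 and 0.13 in control mice. For these 4 genes, as for the marker median, I-PpoI mouse 1 was lowest of all 6 libraries and I-PpoI mice 2 and 3 were highest. Of the 12 markers taken singly, 5 had this order on scaled values, Lrp2, Cubn and Miox among them, and 7 did not; mouse 1 was lowest for 8, and mice 2 and 3 were above all controls for 9. Slc5a2, a glucose transporter of the early proximal tubule, was at 71.98, 94.4 and 43.8 in I-PpoI and 20.1, 18.5 and 10.1 in control mice after scaling, so all 3 I-PpoI mice were above the controls. Slc5a2 overlaps an exon of a gene on the opposite strand. That gene was at 49.4 and 91.6 FPKM in I-PpoI libraries 1 and 2 and 3.78 to 7.04 FPKM in the other 4. Cubn also overlaps such an exon, so the values of both markers in those 2 libraries are uncertain. None of the 12 tubule markers was at 0 in all libraries; Lrp2, the megalin receptor, was at 0.784, 14.3 and 66.5 FPKM in I-PpoI mice, against 2.33, 3.65 and 3.12 FPKM in control mice. Among the 2 most abundant markers, Aqp1, a water channel of tubule and endothelium, was at 169, 151 and 288 FPKM in I-PpoI and 407 to 604 FPKM in control mice, and Kap, an androgen-regulated tubule protein, at 11.5, 25.3 and 710.4 FPKM in I-PpoI and 134, 755 and 165 FPKM in control mice, so these 2 were among the 7. Lrp2, Cubn, Miox and Slc5a2 were picked with their values in view. The part of tubule RNA in the values of the 4 genes was not tested.

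Cybb varied with macrophage markers among the controls. The scaled median of the 8 macrophage markers lay at 0.14, 2.01 and 1.67 from the control mean in I-PpoI mice and at -1.27, 0.35 and 1.00 in control mice. Cybb lay at -1.29, 0.29 and 1.51 in I-PpoI mice and at -1.10, -0.08 and 1.18 in control mice, so control mouse 1 was lowest and control mouse 3 highest of the controls for both. Among I-PpoI mice the order differed, with the marker median highest in mouse 2 and Cybb highest in mouse 3. In I-PpoI mouse 1 the marker median lay above the control mean and Cybb below it. The complement gene C1qa was at 20.4, 91.8 and 65.3 FPKM in I-PpoI mice, against 3.57, 60.7 and 61.9 FPKM in control mice, and C1qb at 14.3, 59.2 and 68.4 FPKM in I-PpoI mice, against 5.12, 47.7 and 58.1 FPKM in control mice. The markers summed to 83.7, 238 and 201 FPKM in I-PpoI and 27.3, 159 and 191 FPKM in control mice, and none was at 0 in all libraries. Of 7 neutrophil markers none passed the filter, their sums were 0, 0 and 3.38 FPKM in I-PpoI and 1.07, 0.956 and 1.95 FPKM in control mice, and Ngp was at 0 in every library. The part of macrophage RNA in the Cybb values was not tested.

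Sod1, Gpx1, Gpx4 and Cyba shared a high control mouse 2. Each was at least 1.5 times its level in control mice 1 and 3 there, as were 15.9% of all tested genes as deposited and 17.2% after scaling. Without that mouse, the scaled log2 fold changes were 0.36, 0.96, 0.45 and 0.61, against 0.04, 0.61, 0.06 and 0.28 with it, and none was called. The median of the 12 endothelial markers did not vary this way: it was at -0.24, -1.16 and -0.31 in I-PpoI mice and at 0.00, 0.03 and 0.06 in control mice, on the scaled log2 scale.

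**Figure D3:**
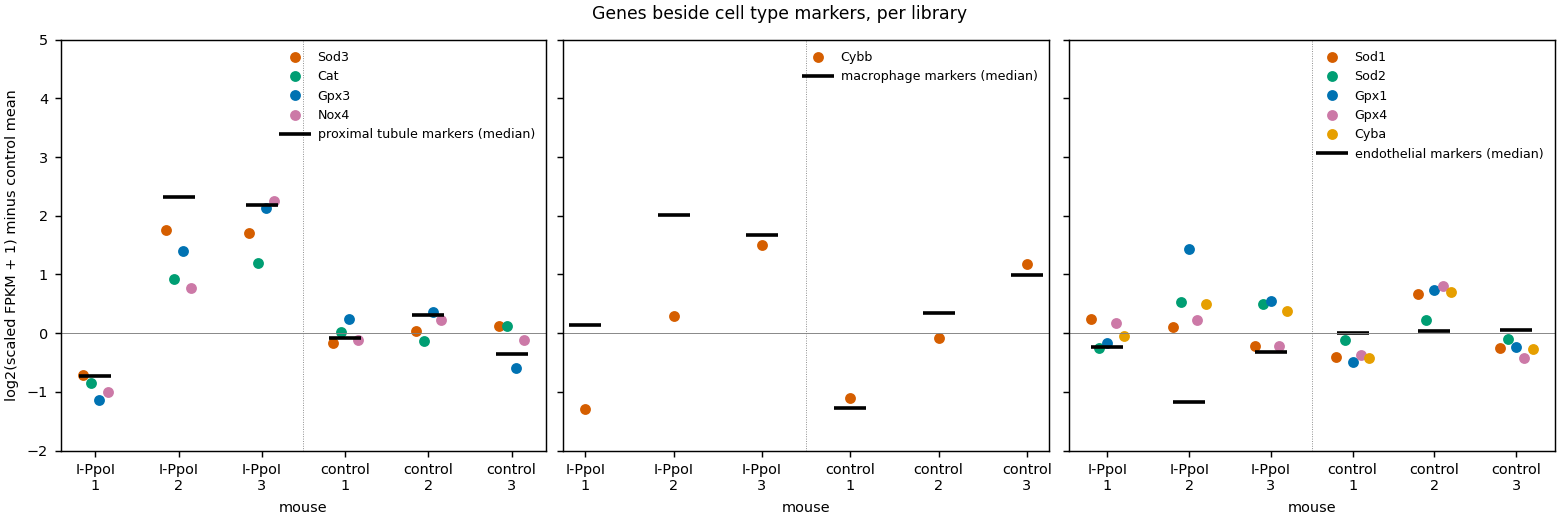
Scaled log2(FPKM + 1) minus the control mean in each library, for the 10 genes (points) beside the median of a marker list (black bars), with I-PpoI mice left of the dotted line and controls right of it. Sod3, Cat, Gpx3 and Nox4 lie below 0 in I-PpoI mouse 1 and above 0 in I-PpoI mice 2 and 3, as does the median of the proximal tubule markers; the panels were chosen after the values were seen.

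The balance within each family shifted between single mice, and all 8 ratios examined overlapped between the groups. Gpx3 over Gpx4 was 3.73, 20.9 and 46.9 in I-PpoI mice and 14.1, 6.78 and 8.26 in control mice. Gpx3 over Gpx1 was 3.24, 6.18 and 19.0 in I-PpoI mice and 10.6, 4.88 and 4.98 in control mice. The secreted peroxidase was thus below all controls in I-PpoI mouse 1 and above all controls in I-PpoI mouse 3 relative to either intracellular one. Among the dismutases, Sod3 over Sod1 was 0.143, 0.991 and 1.19 in I-PpoI mice and 0.348, 0.189 and 0.389 in control mice, and Sod2 over Sod1 was 0.127, 0.259 and 0.318 in I-PpoI mice and 0.227, 0.137 and 0.204 in control mice.

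The genes with the most similar pattern over the 6 libraries were found by the smallest root mean square difference between centred scaled log2 values, among 11354 protein-coding genes. They were Pbld1 and Ddah1 for Sod3, Kcnj15 and Acsl1 for Cat, Slc6a19 for Gpx3, and Gk and Acy1 for Nox4, with differences of 0.08 (Kcnj15) to 0.21 (Slc6a19). Slc6a19 is a neutral amino acid transporter of the tubule, and Acy1 is an aminoacylase. For Cybb they were Mpeg1 and Adgre1, both macrophage genes, at differences of 0.17 and 0.36; Mpeg1 was at 0.719, 3.30 and 13.5 FPKM in I-PpoI mice, against 1.54, 5.98 and 13.8 FPKM in control mice. Adgre1 was 1 of the 8 macrophage markers. For Sod1 they were Twf2 and Otulin, for Sod2 Pgpep1 and Acat1, for Gpx1 Sdhb and Acot13, for Gpx4 Tmem9 and the ribosomal protein gene Rpl14, and for Cyba Hdhd3 and Timm8b. Sdhb, a subunit of succinate dehydrogenase, was at 16.99, 35.7 and 25.3 FPKM in I-PpoI mice, against 27.7, 49.1 and 27.4 FPKM in control mice, with mouse 2 highest in each group as for Gpx1. All these points share the 6 libraries and their depths.

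Of 60 other genes of peroxide, glutathione, selenium and oxidase metabolism, 49 passed the filter and limma called 0 in either direction, as deposited and after scaling. As deposited, 8 of the 49 were above 0 and their median log2 fold change was -0.67, beside -0.65 over all genes and -0.78 over protein-coding genes. After scaling, 25 were above 0 at a median of 0.07, beside 0.02 over all genes. The 13 peroxiredoxin and thioredoxin genes had a scaled median of -0.51, with 3 above 0. Txnip, which binds and inhibits thioredoxin, was at 159, 58.5 and 205 FPKM in I-PpoI mice, against 497, 610.4 and 524 FPKM in control mice. No I-PpoI value reached a control value, and the log2 fold change was -2.12 as deposited (limma adjusted p = 0.132) and -1.27 after scaling (limma adjusted p = 0.318). Txnip shares exon sequence with Gm15441 on the opposite strand, so its values in I-PpoI libraries 1 and 2 are uncertain. Prdx4, the peroxiredoxin of the endoplasmic reticulum, has no such neighbour and was at 5.33, 3.40 and 9.66 FPKM in I-PpoI mice, against 17.04, 22.6 and 16.6 FPKM in control mice. Its groups did not overlap either, as deposited or scaled, at -1.55 as deposited and -0.79 after scaling (limma adjusted p = 0.132 and 0.318). After scaling, the highest I-PpoI value of Prdx4, 11.6, was just under its lowest control value, 11.7. Of all tested genes, 45.1% were also free of overlap with I-PpoI lower as deposited, and 9.76% after scaling.

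Of the 9 tested genes of glutathione peroxidation and synthesis, 1 was above 0 as deposited and 6 after scaling, at a scaled median of 0.10. Gpx8, a membrane peroxidase of the endoplasmic reticulum, averaged 5.51 ± 4.08 FPKM in I-PpoI and 16.1 ± 2.66 FPKM in control mice, and Gpx7, its relative, 5.04 ± 4.13 and 11.04 ± 2.61 FPKM (SD, n = 3 each). Neither passed as deposited (log2 fold change -1.57 and -1.28, limma adjusted p = 0.132 and 0.157). Gpx2 and Gpx5 were listed at 0 in every library. Of the 7 tested genes of selenoprotein synthesis, 2 were above 0 as deposited and 4 after scaling. Selenop, which carries selenium in plasma and overlaps an exon of an opposite-strand gene listed at 1656 and 973 FPKM in I-PpoI libraries 1 and 2 and at most 1.73 FPKM in the other 4, averaged 78.8 ± 54.2 FPKM in I-PpoI and 207 ± 40.4 FPKM in control mice, and Sephs1 averaged 2.45 ± 1.38 and 6.51 ± 0.427 FPKM (SD, n = 3 each; log2 fold change -1.59 and -1.20, limma adjusted p = 0.132 for each). The 5 genes of copper and mitochondrial iron handling had a scaled median of -0.32, with 1 above 0. The copper chaperone Atox1 was at 93.4, 57.4 and 77.8 FPKM in I-PpoI mice, against 136, 269 and 131 FPKM in control mice, and its log2 fold change was -1.16 (limma adjusted p = 0.132). Slc25a37, a mitochondrial iron carrier, was at -1.33 (limma adjusted p = 0.132). These values are as deposited. After scaling, Gpx8 was at -0.83, Gpx7 at -0.60, Selenop at -0.75, Sephs1 at -0.55, Atox1 at -0.32 and Slc25a37 at -0.64.

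Of 16 other oxidase subunits and regulators, 10 were tested, with 1 above 0 as deposited and 7 after scaling, at a scaled median of 0.15. Rac1, the small GTPase that activates the phagocyte oxidase, was at 43.7, 23.6 and 64.3 FPKM in I-PpoI mice, against 125, 142 and 127 FPKM in control mice. Each I-PpoI value was below every control value, at a log2 fold change of -1.67 as deposited and -0.83 after scaling (limma adjusted p = 0.132 and 0.318). The same was true of 45.1% of all tested genes as deposited, and of 9.76% after scaling. Rac1 overlaps an exon of a gene on the opposite strand that was at 165 and 88.7 FPKM in I-PpoI libraries 1 and 2 and 1.33 to 1.58 FPKM in the other 4, so its values in those 2 libraries are uncertain. Cybc1, the chaperone that Cybb and Cyba need to mature, was at 4.00, 4.53 and 5.65 FPKM in I-PpoI mice, against 10.1, 10.6 and 9.56 FPKM in control mice. It was at -0.96 as deposited and -0.22 after scaling (limma adjusted p = 0.132 and 0.643), and it too overlaps an opposite-strand exon, of a gene at 11.4 and 8.34 FPKM in I-PpoI libraries 1 and 2 and 1.11 to 2.56 FPKM in the other 4. Duoxa1 was listed at 0 in every library. Of 7 other oxidase genes 5 were tested, with 3 above 0 as deposited and 4 after scaling. Maoa, monoamine oxidase A, averaged 1.55 ± 2.06 FPKM in I-PpoI and 6.22 ± 0.436 FPKM in control mice, and Xdh, xanthine dehydrogenase, 2.98 ± 1.48 and 4.58 ± 0.424 FPKM (SD, n = 3 each, limma adjusted p = 0.132 and 0.252). The log2 fold change of Maoa was -1.82 as deposited and -1.35 after scaling, and that of Xdh -0.55 and 0.10.

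**Figure D4:**
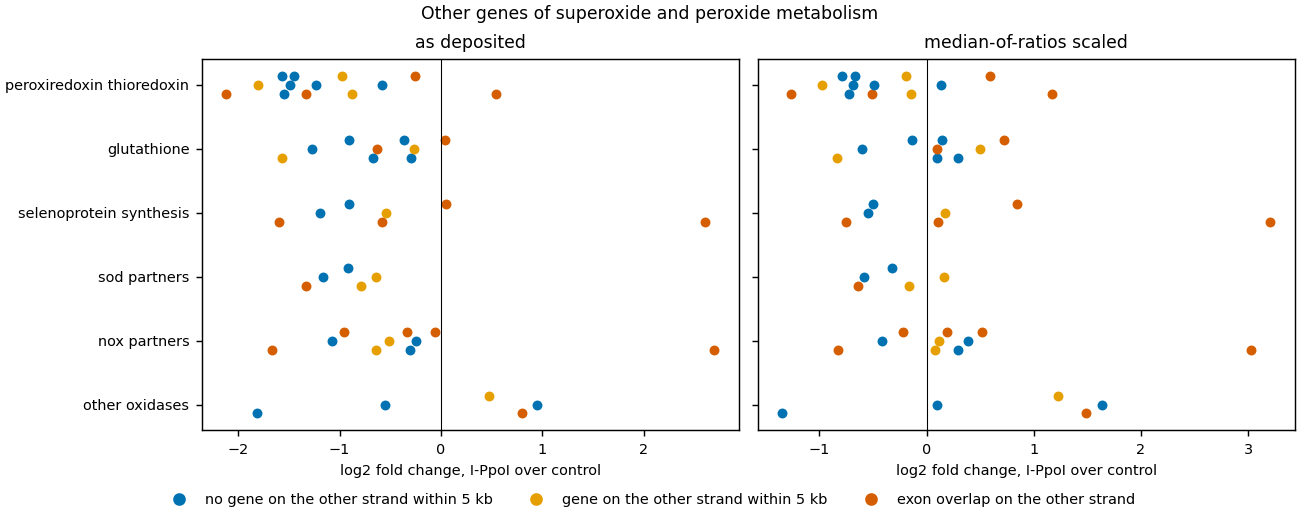
Log2 fold change, I-PpoI over control, of the 49 other tested genes by list, as deposited (left) and after median-of-ratios scaling (right); colours give the strand context of each gene. Few points lie right of 0 on the left side, and the 2 farthest right on either side are Pstk and Nox1, which share exon sequence with a gene on the opposite strand.

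The 2 largest positive values among these genes came with an overlapping gene on the opposite strand. Pstk, a kinase of selenocysteine synthesis, was at 58.5, 29.7 and 0.797 FPKM in I-PpoI mice, against 1.25, 1.95 and 1.19 FPKM in control mice. Nox1, a catalytic oxidase of colon epithelium, was at 18.1, 15.2 and 0 FPKM in I-PpoI mice, against 0.131, 0 and 0 FPKM in control mice. Both were high in I-PpoI libraries 1 and 2 and at or below the control range in I-PpoI library 3, as was Aifm2 (14.7, 10.1 and 1.51 FPKM in I-PpoI, 2.93 to 3.93 FPKM in control mice). These 3 were named after their values were seen. Each overlaps an exon of a gene on the other strand (Ikzf5, Cstf2 and H2afy2), and the same 2 libraries held the antisense excess, so whose transcripts these fragments came from cannot be told apart. None of the 10 genes described here overlaps an exon on the opposite strand, and 8 have a gene there within 5 kb.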

How the data were processed

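Kidney cells sorted on CD31 from 6 mice were sequenced as 100-cycle paired ends, per the labels' protocols. The authors deposited FPKM per gene and library. The submitters' processing notes name DESeq2 1.28.13 and the builds mm10 and GRCm38; how reads were aligned and counted, and with which strand setting, is not given in these sources. The labels describe separate mice, 3 in each group.

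Limma 3.58.1 (R 4.3.3) was fitted to log2(FPKM + 1) with group as the sole term, for genes that averaged 1 FPKM or more, with Benjamini-Hochberg adjustment over all genes tested and a threshold of 0.05. Such fold changes understate the change of low genes. The step was tested on simulated data. Multiplied by exon length, 98.5 to 98.6% of the FPKM values below 1000 fragments came within 0.05 of a whole number; these were used for depth and for limma-voom. Of the gene IDs, 55227 are in GENCODE M21, which gave exons and strands; coordinates are those of the deposited file. Promoters are from RefSeq (GRCm38.p6), which held 9 of the 10 genes. Alternatives covered pseudocounts, filters, scalings, array weights, the mouse number as a block, strand-clear genes and left-out libraries; leaving out single libraries with scaling, and the block over strand-clear genes, were added after the data were seen. Figures were drawn with matplotlib 3.10.9 under python 3.11.15, and tables were handled with pandas 2.3.3, scipy 1.17.1 and numpy 2.4.6.

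The 10 genes and the lists were chosen with earlier results of these data known. The genes named are the 10, up to 2 of smallest p from each list of related genes, the 2 most abundant of each marker list, and the 2 most similar to each of the 10; Lrp2, Cubn, Miox and Slc5a2 were added after their values were seen. Some genes that this rule names are not reported here.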

Additional observations from a re-analysis of the deposited data

How the results depend on the processing

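In every alternative 0 of the 10 genes passed the threshold, while the signs of their log2 fold changes depended on the scaling, and the median of all genes moved from -0.65 to 0.02 with median-of-ratios scaling. Quantile normalization, at a median of -0.45, turned the sign of none of the 10. Scaled by median of ratios, with or without the replicate block, Sod1 was at 0.042, Sod2 at 0.25, Cat at 0.42, Gpx1 at 0.61, Gpx3 at 0.80, Gpx4 at 0.060, Cybb at 0.17 and Cyba at 0.28. By limma-voom they were at 0.0053 (Sod1), 0.31 (Sod2), 0.52 (Cat), 0.53 (Gpx1), 0.77 (Gpx3), 0.0049 (Gpx4), 1.38 (Cybb) and 0.29 (Cyba). In that fit Nox4 was at 1.89 (SE 0.93), the largest of the 10, and Sod3 at 1.03 (SE 0.63), with no change of sign. Over strand-clear genes, which hold Sod2 and Cybb alone of the 10, they were at 0.52 and 0.35, with or without the replicate block. Without I-PpoI mice 1 and 2, Cat was at 0.51, Gpx3 at 1.42 and Cybb at 0.98 as deposited; with scaling 1 gene in all passed, and Sod2 was at 0.53, Cat at 1.23, Gpx1 at 0.57, Gpx3 at 2.15, Cybb at 1.59 and Cyba at 0.41. With array weights 6747 genes passed (2785 higher, 3962 lower), 19 of them among the 60 related genes (3 higher, 16 lower), and Sod3 was at -0.24 and Nox4 at -0.36; the weights ran from 0.109 in I-PpoI library 3 to 9.59 in control library 3. With a pseudocount of 0.1, Nox4 was at -0.21. The cause was not tested.

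Leaving out 1 library in turn, with and without scaling, gave 0 to 8438 genes and 0 to 28 related genes past the threshold, and 0 of the 10; every call came without I-PpoI mouse 3 (8438 genes as deposited and 5650 scaled). The ranges were -0.98 to 0.36 for Sod1, -0.68 to 0.51 for Sod2, -0.34 to 1.74 for Sod3, -0.86 to 1.05 for Cat, -0.48 to 0.99 for Gpx1, -0.79 to 1.76 for Gpx3, -1.04 to 0.45 for Gpx4, -0.71 to 1.53 for Nox4, -1.10 to 0.91 for Cybb and -0.74 to 0.61 for Cyba.

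Nox4 and Cybb had no value at a filter of 5 FPKM. Same-numbered libraries had deviations that correlated at 0.09, 0.06 and -0.02 as deposited, 0.14, 0.06 and 0.04 scaled, and 0.26, 0.20 and 0.19 over strand-clear genes, where each library correlated best with its own number, as a hint from the data and not the design. The replicate block called 0 genes by limma as deposited, with 4510 at an unadjusted p under 0.05, and 0 scaled. Over strand-clear genes, a fit added after the data were seen, it called 1 gene, the Y-linked Eif2s3y (log2 fold change -2.61), and Sod2 and Cybb had limma adjusted p = 0.436 and 0.604. Depth limits Nox4 and Cybb most, at 4 to 15 fragments in I-PpoI libraries 1 and 2.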

Other observations

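Markers of further cell types also differed between the libraries, none of them past the limma threshold. Distal nephron markers, led by Umod and Aqp2, summed to 119, 136 and 161 FPKM in I-PpoI mice, against 209, 267 and 260.3 FPKM in control mice. Umod overlaps an exon of a gene on the opposite strand. That gene was at 2406 and 4684 FPKM in I-PpoI libraries 1 and 2 and 6.47 to 10.3 FPKM in the other libraries. The distal nephron sums of I-PpoI mice 1 and 2 are therefore uncertain. Erythroid markers, led by Hba-a1 and Hbb-bs, summed to 103, 205 and 213 FPKM in I-PpoI mice, against 659, 992 and 243 FPKM in control mice. Mural and fibroblast markers, led by Acta2 and Rgs5, summed to 376, 376 and 428 FPKM in I-PpoI mice, against 929, 697 and 670.2 FPKM in control mice. For the distal nephron, erythroid and mural lists, every I-PpoI sum as deposited lay below every control sum. After median-of-ratios scaling the sums of all 3 lists overlapped between the groups, at 138, 230 and 194 in I-PpoI and 144, 201 and 203 in control mice for the distal nephron, 119, 347 and 256 in I-PpoI and 453, 745 and 189 in control mice for the erythroid list, and 436, 637 and 515 in I-PpoI and 639, 524 and 522 in control mice for the mural and fibroblast list. The lymphocyte list, with 4 of its 6 markers past the filter, had low sums that stayed apart after scaling. They were 13.7, 7.70 and 9.80 in I-PpoI and 17.5, 25.3 and 33.5 in control mice.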
